A study of Mus musculus with 23 samples.

Results

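Macrophages that had entered or lived in the infarcted mouse heart were compared between day 7 and day 3 after the coronary artery was tied, in animals of the control genotype. The comparison used 8 of the series' 23 libraries, 3 at day 7 and 5 at day 3, and all autosomal genes (chromosomes 1 to 19) that passed a filter on low counts, 16001 of the 50225 autosomal genes in the count table. The mice were C57BL/6 and carried a Smad7 gene flanked by loxP sites (S7fl/fl, genotype Smad7 fl/fl) with no Cre recombinase, so Smad7, an inhibitor of TGF-beta signalling, was intact. At both times the left anterior descending coronary artery had been ligated for good, which gives an infarct without reperfusion. Cells were sorted with magnetic beads as Ly6G- CD11b+, that is, depleted of neutrophils and then enriched for myeloid cells, and polyadenylated RNA was sequenced. Other libraries serve for reference. The 3 S7fl/fl libraries from hearts without infarction (baseline) give levels for orientation, and the 5 day 3 and 4 day 7 libraries of littermates with Smad7 deleted in myeloid cells by LyzM-Cre (MyS7KO, genotype Smad7 fl/fl + LyzM-Cre) give the same time interval in the other genotype. The labels give no age, and whether each library is a heart of its own is not stated. The p-values therefore cover only the spread among these libraries, which may be technical. A bead sort on CD11b keeps any other cell that carries or sticks to it, and RNA of whole sorted fractions cannot tell fewer cells of a type from less RNA per cell.

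Macrophages in the healing infarct come from resident cells of the heart and, in far larger number early on, from Ly6C-high monocytes recruited from the blood. The early cells clear dead muscle and release inflammatory mediators and proteases. In the following days the population is known to turn toward phagocytosis of dying cells, lipid efflux, antigen presentation and signals to fibroblasts, which lay down the collagen scar.

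Total counts per library ran from 15479402 to 20471849 at day 3 and from 18018488 to 19549307 at day 7. Levels are given as CPM, counts scaled by library size with TMM factors. Where a gene's libraries are listed, they stand in the order of the replicate numbers, 1 to 5 at day 3 and 2, 3 and 4 at day 7, and a mean is given ± SD over those 5 and those 3 libraries. Marker genes fitted the labelled cell type. Cd68, a lysosomal protein of macrophages, was at 1057 ± 65.8 and 902 ± 100 CPM at day 3 and day 7, and the 9 macrophage markers summed to 13980 to 17200 CPM at day 3 and 17980 to 19810 at day 7. Of these markers Adgre1 (F4/80), Csf1r, Mertk and Lyz2 were higher at day 7, Lyz2 in 14 of 21 alternative analyses, and Itgam (CD11b) lower. Pairs of means are given in this order, day 3 first. Other cell types were also read. The 9 neutrophil markers tested summed to 124 to 213 CPM at day 3 and 141 to 197 at day 7 (median log2 change 0.63). Of the 9, Csf3r and Retnlg were higher, the latter not without day 7 replicate 2, and Mmp8 lower. S100a8 was at 5.11 ± 3.94 and 2.5 ± 1.27 CPM and Ngp at 0.124 ± 0.135 and 1.003 ± 1.35 CPM, and neither passed. B cell markers summed to 46.5 to 62.9 and 93.8 to 165 CPM, with 4 of 8 higher at day 7, 2 without day 7 replicate 4, and none lower. T cell markers Cd3e, Cd3d, Cd3g and Cd8a did not pass the filter. Of the 5 T cell markers tested Cd4 was higher and Il7r lower, the latter in 19 of 21 alternatives. Endothelial markers summed to 325 to 736 CPM at day 3 and 230 to 456 at day 7, and fibroblast markers to 256 to 1115 and 1314 to 3483.

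Several libraries stood apart. Day 7 replicate 2 held 193 CPM of haemoglobin transcripts against 1.68 to 8.45 in the other 7 libraries, the most fibroblast transcripts (3483 CPM) and most of the Retnlg, a neutrophil gene, at 30.0 CPM against 0.0571 to 1.67. The 4 erythroid genes tested, all haemoglobins, passed the test in the time comparison, with overlapping groups, and none passed without that library. Day 3 replicate 4 carried reads of the other sex (a minor signal of 7.83% by Xist and Y-linked genes) and more ribosomal RNA (0.678% of counts against 0.0285 to 0.0832%). The 3 day 7 libraries were male, whereas day 3 replicates 1, 2 and 3 were male and 4 and 5 female, which is why only autosomal genes are described. The library protocol speaks of 8 libraries where the series has 23, and which of them were prepared together is not stated.

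**Figure D1:**
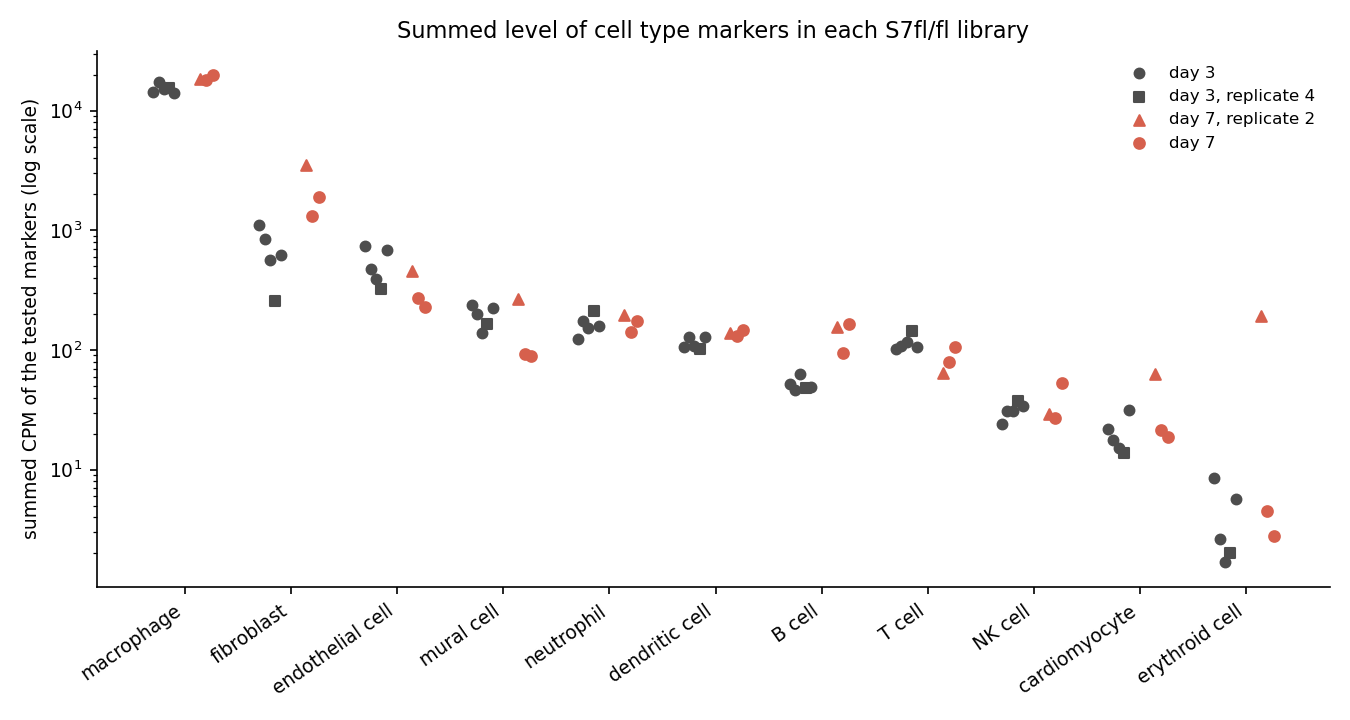
Summed CPM of the tested markers of 11 cell types (horizontal axis) in each S7fl/fl library on a log scale, with grey for the 5 day 3 libraries, red for the 3 day 7 libraries, a square for day 3 replicate 4 and a triangle for day 7 replicate 2. Macrophage markers lie between 13980 and 19810 CPM in all 8 libraries, fibroblast markers are higher in the 3 day 7 libraries, and the erythroid sum of day 7 replicate 2 lies at 193 CPM.

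Between day 3 and day 7 the cells changed in 3478 of the 16001 genes by edgeR's quasi-likelihood test at an adjusted p under 0.05. Of all genes tested, 1853 (11.6%) were higher at day 7 and 1625 (10.2%) lower. The rises were larger: the median log2 change was 0.80 among the higher genes and -0.49 among the lower ones, and 688 genes rose at least 2-fold where 136 fell as much. The median over all tested genes was 0.01. Without regard to the test, the 3 day 7 libraries lay wholly above the 5 day 3 libraries for 2098 genes (13.1%) and wholly below them for 1940 (12.1%). Without day 7 replicate 2, 1209 genes were higher and 921 lower, and without that library and day 3 replicate 4 (below, both libraries that stand apart) the counts were 1068 and 844. Of the 3478 genes 58.7% were called again without day 7 replicate 2, and 2 of the 3478 had the other sign there.

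**Figure D2:**
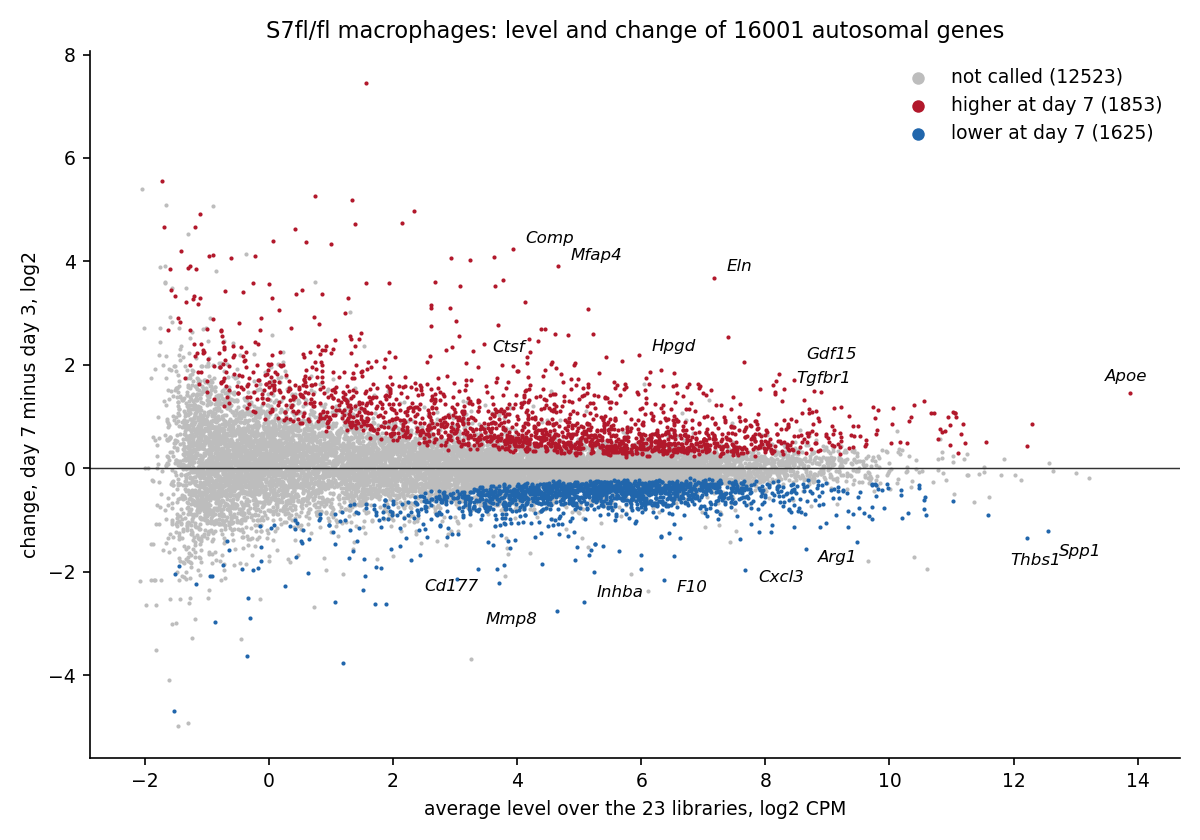
Each point is an autosomal gene, with its average level over the 23 libraries (log2 CPM, horizontal axis) and its log2 change from day 3 to day 7 in S7fl/fl (vertical axis), red where higher, blue where lower and grey where not called. The 1853 red points reach further from 0 than the 1625 blue ones, which lie mostly within 1 log2 unit.

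The 10 largest rises among well-expressed genes with separate groups were all in genes of matrix proteins or of secreted regulators that act in the matrix. Comp, a cartilage and tendon glycoprotein that binds collagen fibrils, read 2.37, 2.52, 1.34, 0.825 and 1.31 CPM at day 3 and 52.8, 20.9 and 22.4 at day 7, a change with separate groups (18.9-fold rise, log2 4.24 ± 0.438 SE, edgeR adjusted p = 2.13e-06). Eln, elastin, read 21.9, 12.4, 13, 10.3 and 26.7 CPM at day 3 and 307, 126 and 222 at day 7 (12.9-fold rise, log2 3.69 ± 0.409 SE, edgeR adjusted p = 5.09e-06), against 143 CPM at baseline. Sfrp2, a secreted inhibitor of Wnt signalling, read 2.67, 0.647, 0.873, 0.381 and 1.26 CPM at day 3 and 28.9, 9.95 and 20.9 at day 7 (16.4-fold rise, log2 4.04 ± 0.469 SE, edgeR adjusted p = 6.42e-06). In each of the 3 the lowest day 7 library lay well above the highest day 3 library, and day 7 replicate 2 was the highest. The others were Mfap4 (15.1-fold), a protein of elastic microfibrils, Adamtsl2 (12.5-fold), Thbs4 (11.6-fold), the collagen-binding proteoglycan Fmod (11.4-fold), Sfrp1 (9.24-fold), Cilp (8.44-fold) and Wisp2 (7.22-fold), with adjusted p between 2.13e-06 and 0.000534. Without both libraries that stand apart the log2 changes were smaller for several, 3.51 for Comp, 3.45 for Sfrp2, 3.29 for Mfap4, 2.67 for Thbs4, 2.57 for Fmod, 2.35 for Cilp and 2.14 for Wisp2. The summed fibroblast markers moved the same way (256 to 1115 CPM at day 3, 1314 to 3483 at day 7), and their part in these rises was not tested.

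The 10 largest falls included a protease, coagulation factors, surface receptors and secreted proteins. Mmp8, a collagenase of neutrophils and early infiltrating cells, read 39.6, 67.7, 46.5, 88.8 and 49.7 CPM at day 3 and 4.94, 8.05 and 12.8 at day 7 (6.8-fold fall, log2 -2.77 ± 0.346 SE, edgeR adjusted p = 1.47e-05). Cd177, a surface protein of neutrophils that some monocytes carry, read 19.8, 25.2, 19.1, 34.1 and 25.9 CPM at day 3 and 4.13, 5.8 and 6.07 at day 7 (4.66-fold fall, log2 -2.22 ± 0.233 SE, edgeR adjusted p = 8.02e-07). F10 and F7, the coagulation factors X and VII, fell 4.46-fold (to 38.6 ± 7.5 from 172 ± 67.1 CPM, adjusted p = 9.26e-05) and 4.03-fold (to 19.5 ± 5.25 from 78.7 ± 16.3 CPM, adjusted p = 1.22e-07). Vcan, the proteoglycan versican, known from classical monocytes, fell 3.87-fold, and Flrt2, Tarm1, an activating receptor of myeloid cells, Met, the receptor of hepatocyte growth factor, and the chemokine gene Cxcl3 fell by 4.38-fold, 3.86-fold, 3.87-fold and 3.9-fold. Inhba, which encodes the subunit of activin A, read 26.8, 112, 32.5, 126 and 46.3 CPM at day 3 and 6.9, 14.8 and 13 at day 7 (5.97-fold fall, log2 -2.58 ± 0.793 SE, edgeR adjusted p = 0.0265). Day 3 replicates 2 and 4 stood above the other 3 day 3 libraries for Inhba, F10, Flrt2, Met and Cxcl3. Every call was repeated under 21 alternatives, which change the tool, the scaling, the filter or the libraries used. The Inhba call held in 11 of the 21 (adjusted p from 0.00172 to 0.186), those of Met and Cxcl3 in 19. Without both libraries that stand apart the log2 changes were -1.97 for Inhba and -1.36 for Met, against -2.58 and -1.95.

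Functional lists differed in how many of their members moved. They range from MHC class II genes, where the rises were most frequent, to classical monocyte genes, where the falls were.

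**Figure D3:**
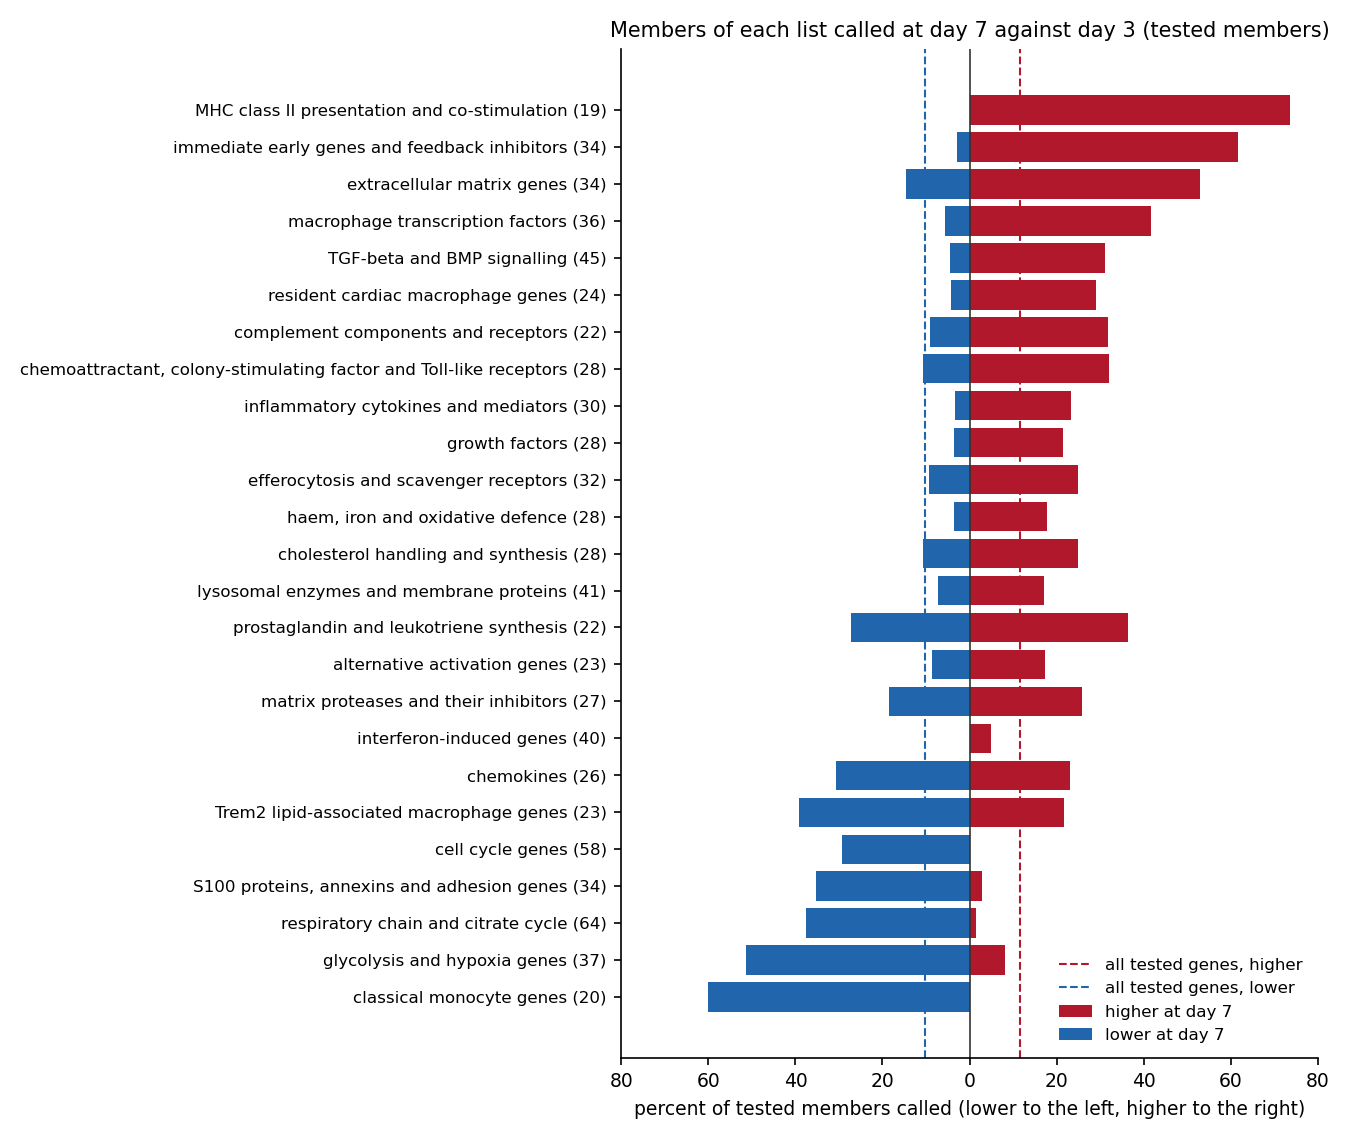
For each of the 25 functional lists (tested members in brackets), bars give the percent of tested members called higher (red, right) and lower (blue, left) at day 7, and dashed lines the same over all tested genes (11.6% and 10.2%). MHC class II and immediate early genes reach furthest to the right, classical monocyte and glycolysis genes to the left.

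Genes of antigen presentation on MHC class II rose together: 14 of 19 tested members were higher, none was lower, and their median log2 change was 0.64 against 0.01 for all genes. H2-Aa, H2-Ab1 and H2-Eb1 encode chains of the class II molecules that show peptides to CD4+ T cells. H2-Aa read 981, 1188, 1086, 938 and 1218 CPM at day 3 and 2217, 2069 and 2561 at day 7 (2.11-fold rise, log2 1.08 ± 0.156 SE, edgeR adjusted p = 3.14e-05). All 3 day 7 libraries lay above all 5 day 3 libraries and below the baseline mean of 3677 CPM, a difference not tested here. H2-Ab1 rose 1.98-fold and H2-Eb1 2.12-fold. Cd74, the invariant chain that guards the peptide groove, was at 2711 ± 202 and 4882 ± 456 CPM (adjusted p = 0.00106) and Ciita, the coactivator that switches on the class II genes, at 12.9 ± 1.82 and 26.9 ± 9.98 CPM (adjusted p = 0.00033). The peptide exchange factors H2-DMa (1.51-fold) and H2-DMb1 (1.55-fold) rose too. Of the co-stimulatory members, Icosl, the ligand of the T cell receptor ICOS, read 33.4, 34.1, 31.6, 29.1 and 27 CPM at day 3 and 96.3, 92.6 and 62.8 at day 7 (2.7-fold rise, log2 1.43 ± 0.12 SE, edgeR adjusted p = 4.21e-08), and Cd83, a surface protein that stabilises class II molecules, read 662, 748, 802, 750 and 891 CPM at day 3 and 2083, 1805 and 1839 at day 7 (2.48-fold rise, log2 1.31 ± 0.143 SE, edgeR adjusted p = 1.22e-06). Cd40 and Cd86 rose 1.94-fold and 1.5-fold, while Cd80 (90.3 ± 18.5 and 73 ± 5.51 CPM) and Cd274, which encodes PD-L1 (144 ± 32 and 115 ± 43.9 CPM), did not pass. Markers of dendritic cells, which also carry class II molecules, summed to 101 to 129 CPM at day 3 and 131 to 146 at day 7, with 3 of 9 higher (Flt3, Batf3 and Siglech, the last in 8 of 21 alternatives) and 1 of 9 without both libraries that stand apart, and 4 of 8 B cell markers were higher. Their part in the class II result was not tested.

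Class II genes are known to share promoter elements, among them a Y box with the core CCAAT that the factor NF-Y binds. The 250 bases before the start of 3 members are therefore shown, on the gene's strand, from RefSeq for GRCm38.p6, with CCAAT or its reverse complement in capitals. Icosl was taken by the rule for named genes, and H2-Aa and H2-Eb1 were added after their values were seen. Cd83 and H2-Ab1 are named only.
H2-Aa: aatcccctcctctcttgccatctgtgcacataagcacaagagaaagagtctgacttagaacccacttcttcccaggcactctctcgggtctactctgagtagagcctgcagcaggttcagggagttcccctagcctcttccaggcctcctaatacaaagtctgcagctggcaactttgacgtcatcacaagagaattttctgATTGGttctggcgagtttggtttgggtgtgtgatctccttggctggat
H2-Eb1: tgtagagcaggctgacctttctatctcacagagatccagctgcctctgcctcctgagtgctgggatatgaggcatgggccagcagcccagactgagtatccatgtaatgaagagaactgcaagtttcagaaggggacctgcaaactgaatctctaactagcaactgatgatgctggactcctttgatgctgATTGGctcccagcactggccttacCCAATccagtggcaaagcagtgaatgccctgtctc
Icosl: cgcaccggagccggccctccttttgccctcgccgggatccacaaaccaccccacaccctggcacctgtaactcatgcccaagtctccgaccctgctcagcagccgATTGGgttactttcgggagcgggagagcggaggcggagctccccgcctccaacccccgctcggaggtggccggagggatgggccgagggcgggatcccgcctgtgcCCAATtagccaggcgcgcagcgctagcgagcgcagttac
The first lies at chr17:34287824-34288073 on the minus strand, the second at chr17:34305617-34305866 and the third at chr10:78069118-78069367, both on the plus strand. H2-Aa holds 1 copy and H2-Eb1 and Icosl 2 each. Of the 19 tested members 13 had a promoter in the table, and 8 of them (61.5%) held CCAAT on either strand in these 250 bases, against 35.7% of the promoters of 11059 tested genes, 34.4% of those of higher genes and 39.7% of those of lower genes, and 34.3% of all 25748 autosomal promoters in the table. The members without it were H2-DMa, Ctss, Ifi30, Cd80 and Cd274. Icosl, which encodes no class II molecule, was the only holder outside the H2 genes. A match of these letters is a description, not a binding site. Of the other motifs searched on both strands, TGACTCA (the AP-1 site) was in 3.24% of higher and 2.97% of lower promoters. It was in 3.31% of those of tested genes and 4.47% of all. CACGTG (an E box) was in 7.65% and 10.3%, against 8.15% of tested and 6.04% of all. TTTGAA was in 11.8% and 10.9%, against 1211 of the 11059 tested promoters and 15.9% of all. GGCGGGAA (of E2F type) was in 3.09% and 4.68%, against 3.39% of tested and 1.86% of all. Tested genes are the closer reference, because the called genes are drawn from them.

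Of 32 tested efferocytosis and scavenger genes 8 were higher and 3 lower (median log2 0.23). Axl, a receptor tyrosine kinase that binds dying cells through Gas6, read 134, 129.8, 128, 152 and 118 CPM at day 3 and 394, 359 and 318 at day 7 (2.7-fold rise, log2 1.43 ± 0.119 SE, edgeR adjusted p = 4.21e-08), with the day 7 mean near the 365 CPM of baseline. Its relative Mertk read 159.9, 137, 126, 108 and 125 CPM at day 3 and 261, 239 and 281 at day 7 (1.99-fold rise, log2 0.99 ± 0.133 SE, edgeR adjusted p = 1.37e-05). Both day 7 groups lay wholly above the day 3 groups. Mfge8, a bridge to phosphatidylserine, rose 2.67-fold and Itgb5, an integrin chain that binds it, 1.57-fold, while Gas6 itself (233 ± 51.2 and 292 ± 43.5 CPM) did not pass. Msr1, scavenger receptor A, read 483, 733, 566, 667 and 459 CPM at day 3 and 222, 299 and 275 at day 7 and fell 2.19-fold (adjusted p = 0.000157), and Cd36, a receptor of oxidised lipids, fell 1.7-fold. The other genes called were Havcr2, Pros1, Scarb2 and Trem2, higher, and Anxa1, lower. Complement genes followed with 7 of 22 higher and 2 lower (median 0.42). The 3 chains of C1q, which opsonises debris, rose 2.09-fold (C1qa), 1.82-fold (C1qb) and 2.11-fold (C1qc). C1qc read 1026, 1074, 1232, 945 and 1211 CPM at day 3 and 2370, 2103 and 2475 at day 7, with no overlap. Receptors of the cleaved components C3a and C5a, C3ar1 and C5ar2, rose 1.51-fold and 1.53-fold. The integrin chains of complement receptor 3, Itgam (1.62-fold, 378 ± 94.3 and 234 ± 9.41 CPM) and Itgb2 (1.39-fold), fell, the latter in 14 of 21 alternatives, so that 1 fall was left without day 3 replicate 2, day 3 replicate 4, day 7 replicate 2 or day 7 replicate 3.

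Of 41 lysosomal genes 7 were higher, 4 without day 7 replicate 4, and 3 lower, 1 without day 7 replicate 2 (median 0.07). Together 24.4% were called, near the share of all tested genes (11.6% higher and 10.2% lower). Ctsf, a cysteine protease, read 8.1, 5.18, 6.38, 2.86 and 5.6 CPM at day 3 and 28.9, 20.4 and 19.1 at day 7 (4.03-fold rise, log2 2.01 ± 0.208 SE, edgeR adjusted p = 8.66e-07), and the day 7 mean was below the 52.3 CPM of baseline. Man2b1, a mannosidase of glycan breakdown, rose 1.56-fold. The proteases Ctsb and Ctsd, and Psap, Grn and Lamp1, did not pass.

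Of 28 genes of cholesterol handling and synthesis 7 were higher and 3 lower, 1 without day 7 replicate 2 (median 0.20). Apoe, the apolipoprotein that carries cholesterol out of macrophages, read 9704, 9305, 10800, 9244 and 11520 CPM at day 3 and 27210, 24290 and 31620 at day 7 (2.74-fold rise, log2 1.45 ± 0.144 SE, edgeR adjusted p = 3.69e-07). The groups lay far apart, and the baseline mean was 9429 CPM. On the deposited FPKM scale, which divides by transcript length, Apoe averaged 4664 ± 495 at day 3 and 12690 ± 1626 at day 7, while Spp1 averaged 6578 ± 1388 and 2827 ± 865. Thus Spp1 was the higher of the 2 in mean at day 3 and Apoe at day 7. Pltp, a phospholipid transfer protein, rose 2.79-fold (131 ± 27.1 and 367 ± 92 CPM), Mylip, which degrades the LDL receptor, 1.99-fold, and Ch25h, which makes 25-hydroxycholesterol, 2.33-fold. Nr1h3, which encodes the sterol sensor LXR-alpha, fell 1.72-fold (32 ± 5.37 and 18.6 ± 3.37 CPM), while the efflux pumps Abca1 (1006 ± 186 and 1166 ± 363 CPM) and Abcg1 (73 ± 16.1 and 97 ± 25.6 CPM) did not pass.

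Of 23 genes known from Trem2-positive, lipid-laden macrophages 5 were higher, 3 without day 7 replicate 4, and 9 lower, 5 without day 7 replicate 2 and 4 without both libraries that stand apart (median -0.33). They did not move as a block. Trem2, a lipid receptor, rose 1.53-fold (434 ± 56.4 and 666 ± 61.2 CPM) and Cd9, a tetraspanin, 1.34-fold. Spp1, osteopontin, read 8499, 10210, 10490, 14720 and 11060 CPM at day 3 and 3258, 6193 and 4831 at day 7 (2.31-fold fall, log2 -1.21 ± 0.251 SE, edgeR adjusted p = 0.00131), against 24.4 CPM at baseline. Fabp5 and Lpl, which bind and release fatty acids, fell 1.88-fold and 1.61-fold, and Anxa2 1.84-fold. Gpnmb (1249 ± 230.2 and 1520 ± 819 CPM) and Lgals3 (1816 ± 214 and 1411 ± 384 CPM) did not pass.

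Of 20 tested genes of classical monocytes 12 were lower, 5 without both libraries that stand apart, and none was higher (median -1.03). These genes summed to 24690 and 23560 CPM in day 3 replicates 2 and 4. The sums were 14340 to 16970 in the other day 3 libraries and 7413 to 11070 at day 7. Besides F10, Vcan and Cd177, Thbs1, an adhesive glycoprotein that activates TGF-beta, read 8742, 12480, 8948, 11310 and 7800 CPM at day 3 and 3250, 4661 and 3702 at day 7 (2.55-fold fall, log2 -1.35 ± 0.24 SE, edgeR adjusted p = 0.000309). Its day 7 libraries lay below all day 3 libraries and above the 338 CPM of baseline. Plac8, a gene of Ly6C-high monocytes, fell 3.2-fold (118 ± 60.7 and 36.8 ± 9.82 CPM), Hp, haptoglobin, 3.2-fold, and Ly6c2, which encodes the surface antigen Ly6C, 3.43-fold (54.5 ± 35 and 15.9 ± 2.83 CPM). Without both libraries that stand apart Ly6c2 had a log2 change of -1.19 (adjusted p = 0.0864), against -1.78, and Plac8 and Hp did not pass either. Fn1, fibronectin, was at 5610 ± 1764 and 2996 ± 1001 CPM (adjusted p = 0.0478, called in 9 of 21 alternatives). Ccr2, the receptor that brings monocytes from the marrow, was at 356 ± 76.6 and 303 ± 21.1 CPM and Chil3 at 375 ± 247 and 163 ± 151 CPM, and neither passed.

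Resident macrophage genes moved less evenly, with 7 of 24 higher and 1 lower (median 0.48). Hpgd, which inactivates prostaglandins, read 12.2, 13.7, 16.2, 10.8 and 11.2 CPM at day 3 and 89.4, 40.2 and 46.8 at day 7 (4.59-fold rise, log2 2.20 ± 0.227 SE, edgeR adjusted p = 1.41e-06), against 162 CPM at baseline. Cx3cr1, the fractalkine receptor, read 118, 108, 174, 106 and 107 CPM at day 3 and 369, 341 and 249 at day 7 (2.61-fold rise, log2 1.38 ± 0.192 SE, edgeR adjusted p = 2.55e-05). Selenop, a selenium carrier, rose 1.98-fold, Igf1 2.35-fold and Fcgrt, the neonatal Fc receptor, 2.08-fold. Lyve1 (19.98 ± 12.1 and 36.5 ± 20.7 CPM), Timd4 (2.67 ± 1.43 and 3.98 ± 2.3 CPM), Folr2 (22.9 ± 3.17 and 23.3 ± 1.91 CPM) and Cd163 (64.6 ± 23.6 and 108 ± 46.1 CPM), the usual markers of long-lived resident cells, did not pass. Pf4, a chemokine that resident macrophages and platelets share, fell 2.08-fold (774 ± 138 and 372 ± 107 CPM). Ppbp, another platelet chemokine, fell 2.86-fold and was called in 13 of 21 alternatives, while the platelet genes Gp9 and Itga2b were at 0.665 ± 0.374 and 0.952 ± 0.342 CPM and 1.63 ± 0.272 and 2.76 ± 0.783 CPM and did not pass. Of 13 tested genes known from microglia, the macrophages of the brain, a list chosen after the values were seen, 11 were higher and none lower: Tmem119 rose 3.08-fold (38.2 ± 2.04 and 118 ± 32.8 CPM), Fcrls 2.03-fold, Olfml3 2.38-fold and P2ry13 1.97-fold. Sall1, which defines microglia, was at 0.115 ± 0.187 and 0 CPM.

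**Figure D4:**
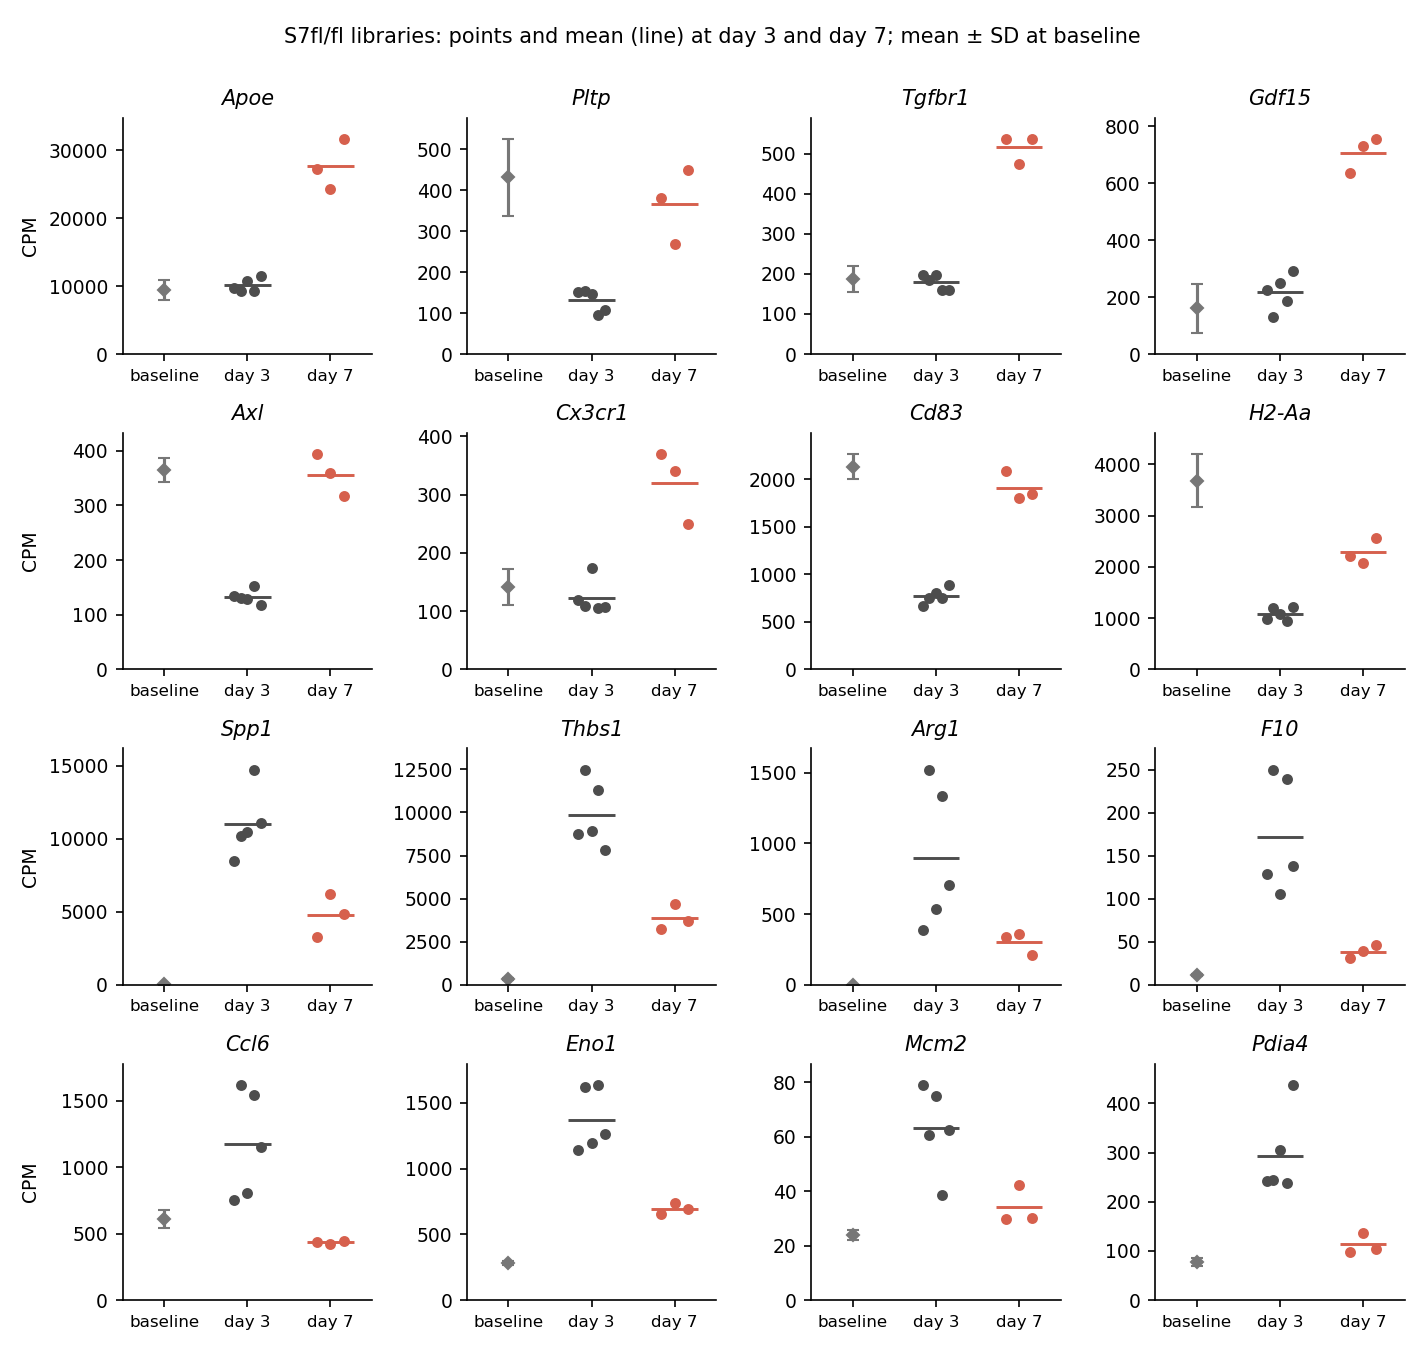
CPM of 16 genes in S7fl/fl libraries, with each day 3 library (grey, 5) and day 7 library (red, 3) as a point, group means as lines, and the baseline mean ± SD of 3 libraries as a diamond. The groups of day 3 and day 7 overlap for Mcm2 and not for the other genes shown.

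TGF-beta signalling genes that rose included receptors, intracellular regulators and targets. Of 45 tested genes 14 were higher and 2 lower (median 0.27). Among ligands Tgfb1 was at 379 ± 51 and 388 ± 37.1 CPM and did not pass. Gdf15, a stress-induced member of the family, read 226, 130.1, 248, 186 and 291 CPM at day 3 and 637, 730.3 and 755 at day 7 (3.27-fold rise, log2 1.71 ± 0.278 SE, edgeR adjusted p = 0.00019). Ltbp2, a matrix protein related to the latency proteins of the ligand, rose 5.98-fold (log2 2.58, and 1.75 without both libraries that stand apart) and Ltbp3, a latency protein, 1.69-fold. Tgfbr1, the type I receptor, read 197, 184, 196, 160.2 and 159 CPM at day 3 and 536, 476 and 537 at day 7 (2.88-fold rise, log2 1.52 ± 0.121 SE, edgeR adjusted p = 3.1e-08), with no overlap. Tgfbr2, its partner, rose 1.39-fold. The receptor-activated and common Smads, Smad2, Smad3 and Smad4, did not pass. Among feedback inhibitors Skil, Ski, Tgif1 and Pmepa1 rose 1.76-fold, 1.45-fold, 1.43-fold and 3.35-fold, and Pmepa1 read 42, 41.8, 46.6, 36.7 and 38.5 CPM at day 3 and 166, 159 and 87.4 at day 7. Not all inhibitors rose: Bambi did not pass (edgeR adjusted p = 0.206). Smad6 averaged 2.36 ± 0.585 and 2.94 ± 0.357 FPKM, Smurf1 7.01 ± 0.536 and 7.73 ± 0.442, and Smurf2 9.81 ± 0.884 and 10.25 ± 0.464. Smad7, the floxed gene of these mice and itself a feedback inhibitor, read 42, 32.4, 30.4, 34.8 and 34 CPM at day 3 and 59.9, 70.2 and 57.4 at day 7 (adjusted p = 0.018, called in 15 of 21 alternatives). In MyS7KO it was at 14.6 ± 3.98 and 23.4 ± 7.66 CPM. Id2 and Id3, inhibitors of helix-loop-helix factors, rose 1.61-fold and 2.21-fold. Their relative Id1 was lower in mean (13.9 ± 4.56 and 9.47 ± 3.51 FPKM) and did not pass (edgeR adjusted p = 0.388). Tgfbi, a secreted adhesion protein named for its induction by the ligand, fell 1.47-fold (2188 ± 298 and 1494 ± 251 CPM). The 2 falls, Tgfbi and Inhba, became 1 without day 3 replicate 4 or any 1 day 7 library and 0 without both libraries that stand apart.

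Extracellular matrix genes had 18 of 34 tested members higher and 5 lower (median 1.34). Without day 7 replicate 2, and also without both libraries that stand apart, 7 were higher, and with male day 3 libraries only 11. The 5 falls became 3 without both, without day 3 replicate 2 or without day 7 replicate 4. Postn, periostin, a mark of activated fibroblasts, read 92.3, 60.3, 52.6, 16.7 and 52.1 CPM at day 3 and 495, 210.2 and 253 at day 7 (5.82-fold rise, log2 2.54 ± 0.419 SE, edgeR adjusted p = 0.000266). Col1a1 and Col3a1, chains of the fibrillar collagens, rose 3.23-fold and 2.77-fold, Lox, which cross-links them, 3.6-fold, and Thbs2 6.02-fold. Without both libraries that stand apart, the log2 changes of Col1a1 (0.96, adjusted p = 0.158) and Col3a1 (0.85, adjusted p = 0.222) did not pass, against 1.69 and 1.47 with them. Postn was then at 1.85 and Thbs2 at 1.82, against 2.54 and 2.59. The falls were in Thbs1, Vcan and Fn1, described with monocyte genes, Tgfbi, and Tnc, called in 12 of 21 alternatives. Of the 12 fibroblast markers 8 were higher and none lower, 2 without day 7 replicate 2, and 7 of the 12 are also on the matrix list. Pdgfra and Fap, fibroblast genes off the matrix list, were at 5.82 ± 3.69 and 7.4 ± 2.51 CPM and 1.7 ± 0.396 and 2.6 ± 1.14 CPM and did not pass. They are 2 of the 4 fibroblast markers not called, and Dcn is another (edgeR adjusted p = 0.0908). Those called include Cthrc1 (edgeR adjusted p = 4.89e-05) and Dpt (0.0094). The fibroblast marker Tcf21 averaged 0.518 ± 0.237 FPKM at day 3 and 1.242 ± 0.634 at day 7, and Meox1 2.872 ± 1.165 and 3.888 ± 1.975, both higher in mean at day 7. Endothelial markers gave 0 of 10 called, with a median of -0.67. The part of fibroblast RNA in the matrix changes was not tested.

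Matrix proteases and inhibitors moved both ways, 7 of 27 higher and 5 lower, 3 without day 7 replicate 2 or 3 (median -0.11). Besides Mmp8, Mmp19 fell 2.33-fold (494 ± 73.6 and 212 ± 95.1 CPM) and Adam8, a sheddase of myeloid cells, 1.82-fold. Cst3, cystatin C, which inhibits cathepsins, read 784, 883, 827, 899 and 923 CPM at day 3 and 1680, 1550 and 1630 at day 7 (1.88-fold rise, log2 0.91 ± 0.112 SE, edgeR adjusted p = 4.91e-06). Plau, the urokinase that activates plasmin, rose 2.09-fold, Timp2, an inhibitor of metalloproteases, 1.88-fold, and Mmp2, a gelatinase of fibroblasts and macrophages, 6.03-fold. Without both libraries that stand apart the log2 change of Mmp2 was 1.80 against 2.59. The fibroblast markers given above rose beside it (8 of 12 higher), and their part was not tested. Mmp9 (76.5 ± 36.1 and 18.6 ± 7.68 CPM) and Mmp14 (418 ± 35.4 and 476 ± 92.2 CPM) did not pass.

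Among 28 growth factors tested 6 were higher and 1 lower (median 0.02), and 3 of the 6 encode platelet-derived growth factors, which drive fibroblasts and mural cells to divide. Called members made up 25.0% of the list, where 11.6% of all tested genes were higher and 10.2% lower. Pdgfb read 70.1, 50.1, 56.2, 43.2 and 60.3 CPM at day 3 and 185, 167 and 138 at day 7 (2.92-fold rise, log2 1.54 ± 0.156 SE, edgeR adjusted p = 5.45e-07) and Pdgfa 27.2, 21.3, 27.8, 19.1 and 25.4 CPM at day 3 and 64.3, 79.8 and 49.4 at day 7 (2.67-fold rise, log2 1.42 ± 0.169 SE, edgeR adjusted p = 3.85e-06). Pdgfc rose 2.19-fold, and the others were Igf1, Gdf15 and Ptn. Mif, a cytokine that holds macrophages in place, fell 2.12-fold (151 ± 25.3 and 71.1 ± 1.14 CPM), while Vegfa (613 ± 145 and 455 ± 55 CPM) did not pass.

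Chemokines split. Of 26 tested, 6 were higher and 8 lower, 5 without day 7 replicate 4, without both libraries that stand apart or with male day 3 libraries only (median -0.31). Cxcl16, a membrane-bound ligand that also takes up oxidised lipids, read 279, 251, 309.6, 256 and 324 CPM at day 3 and 780.3, 830 and 773 at day 7 (2.8-fold rise, log2 1.49 ± 0.138 SE, edgeR adjusted p = 1.56e-07). Ccl3 and Ccl4, which attract monocytes and T cells, rose 1.9-fold and 1.94-fold. Ccl6 read 754, 1616, 803, 1543 and 1150 CPM at day 3 and 434, 425 and 444 at day 7 (2.7-fold fall, log2 -1.43 ± 0.202 SE, edgeR adjusted p = 2.52e-05), with day 3 replicates 2, 4 and 5 above 1 and 3. Ccl9 fell 2.2-fold, and Ccl2 and Ccl7, which attract monocytes through Ccr2, 1.76-fold and 1.86-fold, both called in 17 of 21 alternatives. Cxcl1 (926 ± 146 and 702 ± 229 CPM) and Cxcl2 (3112 ± 729 and 2858 ± 809.6 CPM), ligands for neutrophils, did not pass.

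Among 28 receptors for chemoattractants, colony-stimulating factors and microbial products 9 were higher and 3 lower, 1 without day 7 replicate 2 or 4 (median 0.09). Tlr2, which senses bacterial lipoproteins, read 699.8, 796, 716, 686 and 655 CPM at day 3 and 1628, 1635 and 1411 at day 7 (2.19-fold rise, log2 1.13 ± 0.105 SE, edgeR adjusted p = 1.56e-07), whereas Tlr4, the endotoxin receptor, fell 1.61-fold (49.7 ± 12 and 30.8 ± 5.92 CPM). Csf1r, the receptor that macrophages need to survive, rose 1.69-fold and Cxcr4, which binds Cxcl12, 2.12-fold. Csf2rb, the shared chain of the GM-CSF receptor, fell 1.5-fold and was called in 17 of 21 alternatives.

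Inflammatory mediators did not fall as a group: 7 of 30 were higher, 1 was lower, and the median was 0.00. Together 26.7% were called, where 11.6% of all tested genes were higher and 10.2% lower. Tnf rose 1.74-fold (265 ± 67.4 and 461 ± 132 CPM), Ccrl2, a decoy-like receptor that presents chemerin, 2.26-fold, and Il12b 2.94-fold. The lower count was 3 without day 7 replicate 3 and 0 without both libraries that stand apart. Il10, an anti-inflammatory cytokine, was at 210.4 ± 53 and 394 ± 161 CPM and was called in 13 of 21 alternatives. Ptgs2, cyclooxygenase 2, read 1494, 2918, 1778, 2756 and 1701 CPM at day 3 and 1014, 1419 and 849 at day 7 (1.95-fold fall, log2 -0.96 ± 0.226 SE, edgeR adjusted p = 0.00377). Il1b was at 2255 ± 714 and 2215 ± 574 CPM, Il6 at 47.4 ± 29.2 and 31.5 ± 7.63 CPM, Nos2 at 10.3 ± 3.88 and 3.25 ± 1.46 CPM and Nlrp3 at 871 ± 134 and 1023 ± 188 CPM, and none of them passed. Interferon-induced genes gave 2 of 40 higher (5.0%, against 11.6% of all tested genes), Cxcl10 (1.83-fold) and Gbp3 (1.7-fold), and none lower. Day 7 lay wholly above day 3 for 7 of the 40, and for 13.1% of all tested genes. When only the compared groups were fitted 7 of the 40 were called, and 1 without day 7 replicate 2. Of 23 genes of alternative activation 4 were higher, 2 without day 3 replicate 3 or day 7 replicate 3, and 2, Arg1 and Fn1, lower, with a median of 0.10. Called members made up 26.1%, near the share of all tested genes (11.6% higher and 10.2% lower). Neither fall was called without day 3 replicate 2, day 3 replicate 4, day 7 replicate 2 or day 7 replicate 4, and 1 was without day 3 replicate 3. Arg1, arginase 1, read 389, 1520, 535, 1331 and 704 CPM at day 3 and 339.9, 358 and 212 at day 7, with the 2 groups apart but day 3 replicates 2 and 4 far above the rest (2.96-fold fall, log2 -1.56 ± 0.523 SE, edgeR adjusted p = 0.039). It was called in 9 of 21 alternatives, with adjusted p from 0.0053 to 0.155. Ccl17, a chemokine for T cells, rose 2.37-fold (1.32 ± 0.318 and 3.14 ± 0.379 CPM) and Irf4, which controls interleukin-4 responses, 1.59-fold, while Mrc1 (1074 ± 199.7 and 882 ± 64.2 CPM) and Retnla (1.37 ± 0.847 and 4.13 ± 2.99 CPM) did not pass.

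Prostaglandin and leukotriene genes moved in both directions, 8 of 22 higher and 6 lower, 1 without both libraries that stand apart (median 0.38). Beside the fall of Ptgs2, Ptges3 fell 1.4-fold. Hpgds, which makes prostaglandin D2, rose 2.03-fold, Ptger4, a receptor of prostaglandin E2, 2.24-fold, and Ephx1, an epoxide hydrolase, 3.08-fold.

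Immediate early genes, transcribed within minutes of a stimulus, and the feedback inhibitors induced with them had 21 of 34 members higher and 1 lower (median 0.72). Atf3 read 361, 329, 361, 361 and 402 CPM at day 3 and 794, 714 and 922 at day 7 (2.23-fold rise, log2 1.16 ± 0.111 SE, edgeR adjusted p = 2.21e-07), against 2356 CPM at baseline. Socs3, an inhibitor of cytokine receptors, read 354, 363, 298, 411 and 409 CPM at day 3 and 1056, 783 and 658 at day 7 (2.27-fold rise, log2 1.18 ± 0.168 SE, edgeR adjusted p = 2.54e-05). Fos, Jun and Egr1 rose 2.34-fold, 1.82-fold and 2.28-fold, Dusp1, a phosphatase of MAP kinases, 1.98-fold, and the orphan receptors Nr4a1 and Nr4a3 1.95-fold and 1.8-fold. Fosl1 was at 25.9 ± 4.82 and 14 ± 6.21 CPM, with overlapping groups, and was called lower in the main test and in 9 of 21 alternatives. The baseline means of Fos, Jun and Egr1 were 2442, 2620 and 2261 CPM. Heat shock genes Hspa1a (129 ± 34.4 and 212 ± 4.33 CPM) and Hspa1b (171 ± 42 and 253 ± 11.4 CPM), which also respond to handling of cells, did not pass. They were called in 4 and 1 of 21 alternatives. The part of cell handling in the immediate early result was not tested.

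Of 36 macrophage transcription factors 15 were higher and 2 lower (median 0.38). Irf8, needed for monocyte and macrophage development, read 126, 124, 156, 151 and 142 CPM at day 3 and 224, 228 and 223 at day 7 (1.61-fold rise, log2 0.69 ± 0.0855 SE, edgeR adjusted p = 5.53e-06). Cebpa, another factor of the myeloid lineage, rose 1.81-fold. Hif1a, the oxygen-regulated factor, read 339, 407, 319, 401 and 278 CPM at day 3 and 178, 243 and 193 at day 7 (1.71-fold fall, log2 -0.77 ± 0.143 SE, edgeR adjusted p = 0.000433), while Spi1 (PU.1) was at 383 ± 36.4 and 469.6 ± 54.4 CPM and did not pass.

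Of 37 genes of glycolysis and hypoxia 19 were lower and 3 higher (median -0.48). Eno1, enolase, read 1143, 1623, 1195, 1635 and 1263 CPM at day 3 and 652, 740.2 and 696 at day 7 (1.97-fold fall, log2 -0.98 ± 0.134 SE, edgeR adjusted p = 1.74e-05), against 284 CPM at baseline. Pkm, Gapdh, Tpi1 and Ldha fell 1.88-fold, 1.72-fold, 1.8-fold and 1.78-fold, and Slc16a3, which exports lactate, 1.94-fold. Hk3, a hexokinase of myeloid cells, fell 1.98-fold (231 ± 33.9 and 117 ± 23.5 CPM). Pfkfb3, which makes the activator of phosphofructokinase, went the other way and read 132, 126, 154, 153 and 164 CPM at day 3 and 246, 253 and 255 at day 7 (1.72-fold rise, log2 0.79 ± 0.102 SE, edgeR adjusted p = 9.72e-06). The glucose transporter Slc2a1 (214 ± 35.2 and 191 ± 40.5 CPM) did not pass.

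Of 64 respiratory chain and citrate cycle genes 24 were lower, 14 without both libraries that stand apart, 39 did not pass and 1 was higher (median -0.28). Mdh2, mitochondrial malate dehydrogenase, read 174, 194, 189, 196 and 181 CPM at day 3 and 100.5, 120.5 and 104 at day 7 (1.73-fold fall, log2 -0.79 ± 0.0977 SE, edgeR adjusted p = 5.09e-06), Cycs, cytochrome c, fell 1.65-fold and Idh3a 1.71-fold. The beta subunit of ATP synthase, Atp5b, fell 1.49-fold. Ndufa6, the 1 gene higher (1.35-fold), was called in 7 of 21 alternatives.

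Cell cycle genes had 17 of 58 lower and none higher (median -0.35), and most of the falls were in genes of DNA replication. Mcm2, a subunit of the replicative helicase, read 78.9, 60.7, 74.9, 38.5 and 62.3 CPM at day 3 and 29.8, 42.4 and 30.1 at day 7 (1.85-fold fall, log2 -0.89 ± 0.181 SE, edgeR adjusted p = 0.00107), with day 3 replicate 4 within the day 7 range. Mcm4 fell 1.6-fold, Mcm6 1.66-fold, Cdc45 1.78-fold and Rrm1 1.53-fold. The mitotic kinases Aurka and Bub1 fell 1.55-fold and 1.58-fold, called in 19 and 9 of 21 alternatives, while Mki67 (161 ± 55 and 179 ± 41.7 CPM), Top2a (119 ± 37.9 and 82 ± 13.4 CPM), Ccnb1 (18.1 ± 6.72 and 12.5 ± 2.45 CPM) and Cdk1 (30.4 ± 10.8 and 24.1 ± 6.58 CPM) did not pass. The count was 27 without day 3 replicate 4, 30 with male day 3 libraries only, 10 without day 7 replicate 2 and 8 without day 7 replicate 4. Cks2, which binds cyclin-dependent kinases and is not on this list, was higher at day 7.

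Chaperones, proteasome subunits, ribosome biogenesis factors and tRNA synthetases were read in 5 lists that were chosen after values had been seen, so their counts are no independent evidence of direction. In the endoplasmic reticulum 13 of 15 chaperones were lower (median -0.88). Pdia4, a disulphide isomerase, read 243, 244, 305, 239 and 437 CPM at day 3 and 98.3, 137 and 105 at day 7 (2.58-fold fall, log2 -1.37 ± 0.197 SE, edgeR adjusted p = 3.68e-05), and Hyou1, Hsp90b1 and Calr fell 2.35-fold, 1.89-fold and 1.83-fold. Hspa5 (BiP) was at 3200 ± 472 and 3052 ± 1268 CPM and did not pass. All 8 subunits of the cytosolic chaperonin CCT were lower (median -0.48), among them Cct6a (1.82-fold). So were 28 of 31 proteasome subunits (median -0.46), 18 without day 7 replicate 2 and 15 without both libraries that stand apart, for example Psmd14 (1.6-fold). Of 20 ribosome biogenesis factors 16 were lower (median -0.48), for example Rrp1b (2.34-fold), and of 20 cytosolic aminoacyl-tRNA synthetases also 16 (median -0.48), for example Aars (1.55-fold). None of the genes on these 5 lists was higher.

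S100 proteins, annexins and adhesion genes had 12 of 34 lower, 7 without day 7 replicate 2 and 5 without both libraries that stand apart, and 1 higher (median -0.35). Anxa2, which binds membranes and plasminogen, read 888, 1048, 933, 1150 and 1198 CPM at day 3 and 482, 593 and 624 at day 7 (1.84-fold fall, log2 -0.88 ± 0.119 SE, edgeR adjusted p = 1.55e-05), and Tmsb10, which binds actin, fell 1.79-fold. S100a1 was the 1 gene higher (1.74-fold), and 2 were without day 7 replicate 2 or day 7 replicate 4. Genes of haem, iron and oxidative defence gave 5 of 28 higher, 2 without day 7 replicate 2 and 3 without day 7 replicate 4, and 1 lower (median -0.08). Together 21.4% of this list were called, near the share of all tested genes (11.6% higher and 10.2% lower). The lower count was 4 without day 7 replicate 3 and 0 without day 7 replicate 2 or day 3 replicate 3. Hfe, a regulator of iron uptake, rose 1.72-fold (83.3 ± 7.52 and 143 ± 7.25 CPM) and Nfe2l2 (NRF2) 1.55-fold. Tfrc, the transferrin receptor, fell 1.39-fold and was called in 15 of 21 alternatives. Hmox1, haem oxygenase (3856 ± 382 and 2458 ± 1134 CPM), and the ferritin chain Fth1 (8334 ± 998 and 8066 ± 1202 CPM) did not pass.

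By class of transcript, calls were balanced among protein-coding genes, 1646 higher (12.3%) and 1593 lower (11.9%) of 13372 tested. Among 451 long intergenic RNAs 57 were higher (12.6%) and 3 lower (0.665%), with a median of 0.32. Among 524 antisense RNAs 45 were higher (8.59%) and 5 lower (0.954%), with a median of 0.09. In both classes rises were about as frequent as among protein-coding genes or less so, and falls were rarer. Whether the counting used strand is not given in the sources used here, so an antisense gene and its partner may share reads. Immunoglobulin constant genes gave 4 of 8 higher and variable genes 8 of 40. Ighm, the IgM heavy chain, read 22.2, 20.9, 32.6, 20.4 and 20.3 CPM at day 3 and 109.6, 58.1 and 92.1 at day 7 (3.73-fold rise, log2 1.90 ± 0.235 SE, edgeR adjusted p = 1.15e-05), against 168 CPM at baseline. The median length of higher protein-coding genes was 4430 bases, of lower ones 4300 and of those not called 4348.

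The same interval in MyS7KO, which shares no library with the S7fl/fl change, asks whether the change depends on Smad7. The test of the difference between the 2 changes called 0 of 16001 genes by edgeR (0.0%), with 1667 unadjusted p-values under 0.05 and a smallest adjusted p of 0.416. If no gene differed, a fraction of about 0.05 of the unadjusted p-values would lie under 0.05, and the count is above that. With few libraries per group, the absence of calls does not show that the 2 changes are equal. DESeq2 called 4 (Vrk1, Htra2, Prkg1 and Ighv1-18). At day 7 all S7fl/fl libraries were male and all MyS7KO libraries female, so sex and genotype cannot be told apart there. Of the 3478 genes called in S7fl/fl, 3418 (98.3%) had the same sign in MyS7KO, against 75.8% of all tested genes. Across the 16001 genes, which are not independent and include many at low counts, Pearson's r of the 2 changes was 0.65.

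The lowest p-values of the difference by edgeR, all at an adjusted p of 0.416, include the 4 genes that DESeq2 called and Cks2. Vrk1, a kinase of chromatin and mitosis, was at 44.5 ± 3.06 and 44.8 ± 5.43 CPM in S7fl/fl and at 49.6 ± 2.13 and 33.6 ± 3.21 CPM in MyS7KO. Htra2, a mitochondrial protease, was at 28.7 ± 1.38 and 33.7 ± 1.22 CPM and at 36 ± 1.81 and 29 ± 0.383 CPM. Cks2, which binds cyclin-dependent kinases, was at 21.7 ± 2.45 and 33.5 ± 3.77 CPM and at 25.4 ± 2.11 and 23.9 ± 2.69 CPM. Its rise in S7fl/fl was called (edgeR adjusted p = 0.00033), also in all 21 alternatives. Prkg1, a kinase activated by cyclic GMP, was at 0.848 ± 0.266 and 0.524 ± 0.209 CPM and at 0.514 ± 0.123 and 1.84 ± 0.997 CPM. The immunoglobulin variable gene Ighv1-18 was at 0.177 ± 0.171 and 1.3 ± 1.08 CPM, and at 0.299 ± 0.163 and 0 CPM in MyS7KO. Inhba, which fell in S7fl/fl, was at 38.3 ± 13 and 44.9 ± 56.6 CPM in MyS7KO (log2 0.23), and the difference of the changes had an adjusted p of 0.442. Flrt2 changed by -2.13 and -0.53 on the log2 scale (adjusted p of the difference 0.416). By list, median log2 changes in S7fl/fl and MyS7KO were 0.64 and 0.45 for MHC class II genes, -1.03 and -1.11 for classical monocyte genes, 1.34 and 1.92 for matrix genes, -0.35 and -0.87 for cell cycle genes, -0.28 and -0.62 for respiratory genes and -0.88 and -1.43 for chaperones of the endoplasmic reticulum. Endothelial markers had medians of -0.67 and 0.15.

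**Figure D5:**
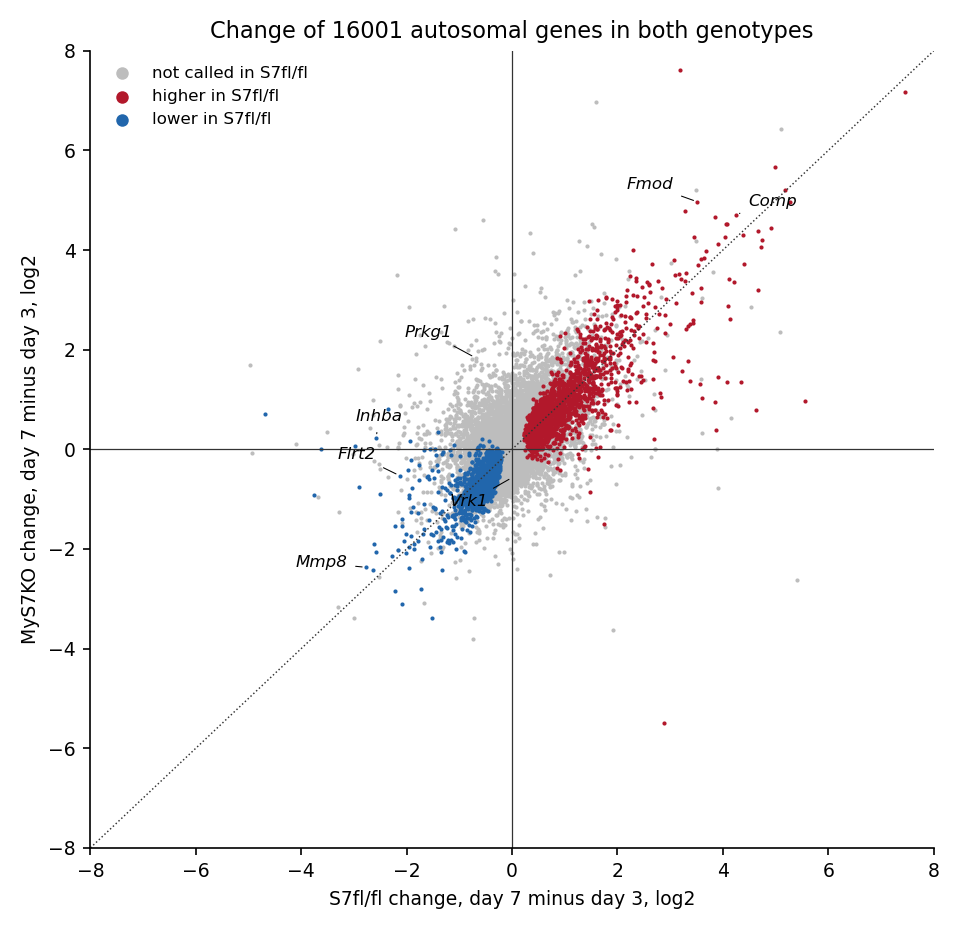
Log2 change from day 3 to day 7 in S7fl/fl (horizontal axis) and in MyS7KO (vertical axis) of 16001 autosomal genes, coloured by the S7fl/fl call, with a dotted line of equal change. Of the 3478 coloured points 3418 lie in the quadrants of equal sign, and Inhba and Flrt2 lie off the line.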

How the data were processed

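RNA of Ly6G- CD11b+ cells was read as 150 bp paired-end polyadenylated libraries, per the labels. The authors deposited raw counts per gene and FPKM values, each as one table for all libraries. HTSeq 0.6.1, TopHat2 2.0.9 and Cufflinks 2.1.1, with the builds mm10 and GRCm38.p6, are listed per the submitters' processing notes. Whether counting used strand is not given in the sources used here.

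Counts of all 23 libraries were fitted with edgeR 4.0.16 (R 4.3.3; quasi-likelihood, TMM, filterByExpr), with 1 mean per group, and p-values were adjusted by Benjamini and Hochberg over all genes that passed the filter. The threshold was an adjusted p of 0.05. All groups share 1 estimate of the spread. The code was tested on simulated data. Alternatives included DESeq2 1.42.0, limma 3.58.1 and FPKM with a pseudocount of 1 or 0.1.

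The naming rule took the 10 genes with the largest change in each direction (called, separate groups, average of at least 3 log2 CPM, no predicted genes). It added, from every list by function, its 2 called genes of lowest p and the first called in the opposite direction, and the 5 lowest p-values of the genotype difference. The comparison and lists were chosen with earlier results of these data known. Other examples, 6 added lists, and the promoters of H2-Aa and H2-Eb1 were chosen after values were seen. Genes off the autosomes were fitted and are not described. Some genes that the rule names are not reported here.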

Additional observations from a re-analysis of the deposited data

Results flagged for a closer look

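Among 97 groups of 5 libraries tested for a value far from the rest (Dixon's test, critical value 0.71, which chance passes in about 1 in 20), 3 stood out at day 3. Cd40 was at 39.4 CPM in replicate 3, against 32.9 to 34.4 in the others. Cx3cr1 was at 174 CPM in replicate 3, against 106 to 118. Mcm4 was at 46.3 CPM in replicate 4, the library with reads of both sexes, against 66.0 to 72.5. The 3 day 7 libraries are too few for this test.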

How the results depend on the processing

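The count of 3478 genes by edgeR stayed within 1.5 times under the other tools, scalings and filters, from 2702 with no filter on low counts to 4142 with limma-voom. Leaving out 1 library gave 2130 to 3204 (1209 to 1727 higher, 921 to 1506 lower), and the lowest values came without day 7 replicate 2. Without that library and day 3 replicate 4, a choice made after seeing the data, 1912 genes were called (1068 higher, 844 lower), and 52.0% of the 3478 genes were called again. The fits without libraries hold fewer samples. With male day 3 libraries only, 73.4% were called again. RLE scaling gave 1808 higher and 1720 lower genes.

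With the replicate number as a block (replicate block), 2703 genes were called (1463 higher, 1240 lower). Same-numbered libraries correlated at 0.0415 to 0.142 in their deviations from the group means and 0 of 3 day 7 libraries correlated best with its own number, so the numbers were not taken to pair the libraries. For the difference between genotypes, edgeR called 0 genes, DESeq2 4 and the replicate block 1. Of the 77 genes named by rule 66 kept their call in every alternative, 11 lost it in at least 1, and 0 changed sign. The rule took genes of low p or of large change in the main fit, so this stability is partly built in. Of all 3478 called genes 58.7% were called again without day 7 replicate 2. Precision is limited by the 3 libraries at day 7 and, for genes of few counts, by depth.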
